A study of Mus musculus with 6 samples.

Results

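Transcripts of 9 genes of pyrimidine nucleoside breakdown and salvage were followed in the liver of SHP knockout mice: Tymp, Upp1, Upp2, Dpyd, Dpys, Upb1, Cda, Uck1 and Tk2. They were taken by name from the 33495 genes of the deposited table, 19594 of which had counts, and each of the 9 had counts. The set was chosen by the known difference of Tymp between the genotypes and by the pathway, with the values of these same libraries in view, so the differences of the 9 between the genotypes are given as a description, with no test. Both groups were livers of male mice, 2 months old and of a C57BL6 background. One group held 3 wild-type mice and the other 3 SHP -/- mice, which lack SHP, the nuclear receptor encoded by Nr0b2 that represses other transcription factors. All 6 libraries were made from RNA selected for its 5′ cap, and how complete the selection was in each library was not tested. The labels do not describe the knockout allele or say whether the wild-type mice were littermates.

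Pyrimidine nucleosides are broken down in a short series of steps, most active in liver. Thymidine phosphorylase (Tymp) and the uridine phosphorylases (Upp1, Upp2) split the nucleoside into a free base and a sugar phosphate. Dihydropyrimidine dehydrogenase (Dpyd) then reduces uracil or thymine, dihydropyrimidinase (Dpys) opens the ring, and beta-ureidopropionase (Upb1) releases a beta-amino acid, ammonia and carbon dioxide. Cytidine deaminase (Cda) feeds cytidine into the uridine branch. Uridine-cytidine kinase (Uck1) and the mitochondrial thymidine kinase (Tk2) do the opposite and return nucleosides to nucleotides. Loss of TYMP in people raises thymidine and damages mitochondrial DNA, and DPYD is known for inactivating fluorouracil.

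Tymp and Upp2, the members with the largest differences in opposite directions, are shown first by the sequence at their starts. Each window runs from 250 bases before to 50 bases after a start in RefSeq (GRCm38.p6), and 8 of the 9 members matched the RefSeq table, with 12 windows. Dpys had no entry. Capitals mark exact matches, on either strand, to any of 7 motifs. One is TCAAGGTCA, the element of the LRH-1 family, and its core without the first 2 bases, AAGGTCA, was searched on its own as well. The next are the HNF4A-type direct repeat and the FXR-type inverted repeat of the nuclear receptor half-site AGGTCA, each with 1 base between the copies. The E-box of clock factors was searched as CACGTG. The GC box was searched as GGGCGG. The last was the TATA box, searched as TATAAA. The Tymp window lies at chr15:89376987-89377286 on the minus strand. The Upp2 windows lie at chr2:58567084-58567383 and chr2:58754934-58755233 on the plus strand.
Tymp: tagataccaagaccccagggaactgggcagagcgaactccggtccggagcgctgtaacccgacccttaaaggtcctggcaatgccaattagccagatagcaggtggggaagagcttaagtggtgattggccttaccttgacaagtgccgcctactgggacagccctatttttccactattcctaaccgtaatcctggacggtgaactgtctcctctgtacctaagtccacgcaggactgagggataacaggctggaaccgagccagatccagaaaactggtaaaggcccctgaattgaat
Upp2 upstream start: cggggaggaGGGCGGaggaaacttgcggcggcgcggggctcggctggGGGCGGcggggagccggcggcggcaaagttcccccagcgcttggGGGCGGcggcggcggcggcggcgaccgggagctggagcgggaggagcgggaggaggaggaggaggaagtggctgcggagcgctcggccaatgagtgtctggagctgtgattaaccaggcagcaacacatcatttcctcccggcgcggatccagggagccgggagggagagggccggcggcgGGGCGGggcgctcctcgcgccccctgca
Upp2 downstream start: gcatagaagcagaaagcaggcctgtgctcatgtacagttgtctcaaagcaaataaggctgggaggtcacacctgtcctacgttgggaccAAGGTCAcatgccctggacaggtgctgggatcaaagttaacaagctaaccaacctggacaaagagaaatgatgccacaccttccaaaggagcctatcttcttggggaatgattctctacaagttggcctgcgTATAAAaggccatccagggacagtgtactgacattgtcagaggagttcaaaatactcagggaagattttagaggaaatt
None of the 7 motifs was found in the Tymp window. The upstream Upp2 window held GGGCGG 4 times, a match found in 35.7% of all 32851 windows of the table. The downstream Upp2 window held AAGGTCA, beginning at position −161 from the start and found in 4.72% of windows, and TATAAA, beginning at −29 and found in 13.6% of windows. Of the other members, Dpyd and Tk2 held GGGCGG 2 times each, Cda and each of the 3 Upp1 windows held it 1 time, and the windows of Upb1 and Uck1 held no match. TCAAGGTCA, the direct repeat, the inverted repeat and CACGTG, found in 0.423%, 0.0396%, 0.00913% and 7.15% of all windows, were in none of the 12 member windows. Counts per gene do not show which Upp2 start was used.

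Library totals ran from 4494353 to 7225842 counts. Nr0b2 itself was at 29, 36 and 77 counts in the knockout libraries and 104, 59 and 85 in the wild-type ones, or 6.62 to 10.3 CPM (counts scaled to library size) against 12.3 to 17.7, so its transcripts were lower but still counted, and counts per gene do not show which part of the gene was read. Mitochondrially encoded genes took 5.66% to 7.10% of counts in knockout libraries, and 10.2% to 10.3% in wild-type ones. Hepatocyte markers summed to 71210 to 93548 CPM in wild-type liver and 78745 to 85932 CPM in knockout, with Alb at a log2 difference of 0.05 ± 0.12 (SE). Lane and genotype cannot be told apart, as no source used here ties a library to its lane. Of 11794 genes tested with limma voom at a Benjamini-Hochberg adjusted p under 0.05, 894 were higher (7.58%) and 819 lower (6.94%) in knockout, 14.5% in all, and the median log2 difference was −0.01.

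Of the 9 members, 8 passed the filter on low counts and Upp1 did not. Tymp was past the threshold towards higher and Upp2 towards lower, and the other 6 were not, against 14.5% of all genes tested. Since the members were proposed from this contrast, nothing is read from that count. The groups did not overlap for 4 members (Tymp, Upp2, Dpyd and Cda), against 35.1% of all genes tested.

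**Figure D1:**
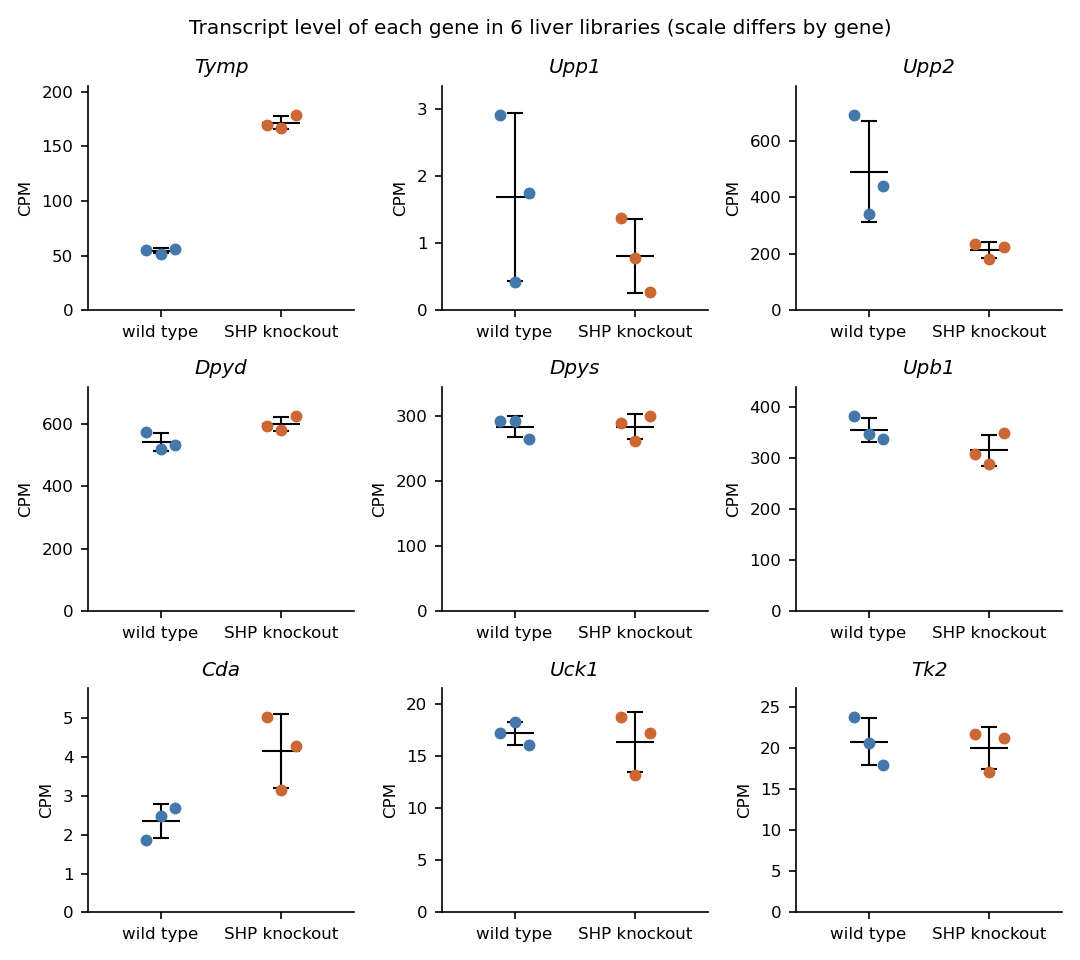
Level of each of the 9 genes in CPM (vertical axes, starting at 0 and scaled per gene) in 3 wild-type (blue) and 3 SHP knockout (orange) libraries. Points are libraries, and lines and bars are means and SD. The 3 knockout libraries of Tymp sit between 167 and 178 CPM, above 52.0 to 56.5 CPM in wild type, and those of Upp2 sit below every wild-type library.

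Tymp (ENSMUSG00000022615; mm9 chromosome 15, 89202362 to 89207470, minus strand), which cleaves thymidine and deoxyuridine, had about 3 times the transcript level in knockout liver. Its counts were 322, 250 and 356 in wild-type liver and 741, 850 and 1329 in knockout. Scaled to library size these were 54.9, 52.0 and 56.5 CPM in wild-type liver and 169, 167 and 178 CPM in knockout. The lowest knockout library stood far above the highest wild-type library, and the libraries within each genotype lay close together. The means were 54.5 ± 2.31 CPM in wild-type liver and 172 ± 6.08 CPM in knockout (SD, n = 3 each), a ratio of 3.15. On the log2 scale the difference was 1.65 ± 0.11 (SE), and it ran from 1.62 to 1.68 over every other setting and every fit without 1 library. In the authors' deposited table, Tymp was at 23.3 RPKM (reads scaled to gene length and depth) in wild type and 75.1 RPKM in knockout, with a log2 ratio of 1.66.

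The table gave Tymp a counted length of 1502 bases. In a later annotation (GENCODE, GRCm38) Tymp has 2037 exonic bases, of which 535 are shared with exons of Ncaph2 on the opposite strand, and the remainder is also 1502. Of that remainder, 321 bases are exonic in Sco2 too, and 1181 are in neither gene. Sco2 was not analysed here, so reads of Tymp and Sco2 cannot be told apart in the shared bases.

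Of the uridine phosphorylases, Upp2 was abundant and Upp1 was the lowest of the 9. Upp2 (mm9 chromosome 2, 58419709 to 58645382, plus strand), the liver form, was at 690.2, 342 and 439.7 CPM in wild-type liver and 233, 183 and 224 CPM in knockout. Every knockout library was lower than every wild-type library, and wild-type library 1 stood above the other wild-type libraries. The means were 491 ± 179 and 213 ± 27.0 CPM (SD, n = 3 each), a ratio of 0.435. The log2 difference was −1.15 ± 0.20 (SE), and over the other settings it ran from −1.37 to −0.87, the latter without wild-type library 1. The authors' deposited table gave Upp2 as 45.3 RPKM in wild type and 19.8 RPKM in knockout, with a log2 ratio of −1.19. Upp1 (mm9 chromosome 11, 9018106 to 9036173), the more widely expressed form, held only 17, 2 and 11 counts in wild-type liver and 6, 4 and 2 in knockout. That is 0.416 to 2.90 CPM in wild-type liver and 0.268 to 1.37 CPM in knockout, with groups that overlap, and a difference was not detectable at this depth.

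Counts of Tymp per 100 counts of Upp2 put both phosphorylase changes on one scale that does not depend on library size. They were 7.96, 15.2 and 12.9 in wild type and 72.5, 91.4 and 79.7 in knockout. Wild-type libraries thus held far fewer Tymp than Upp2 counts, while in knockout the counts were closer to equal. These counts are not scaled to counted length, which was 1502 bases for Tymp and 7053 for Upp2. Scaled to it, mean Tymp and Upp2 were at 36.3 and 69.6 CPM per kilobase in wild type. In knockout they were at 114 and 30.2.

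The 3 enzymes that take the free base apart were abundant and close to equal between genotypes. Dpyd (mm9 chromosome 3, 118265047 to 119135836), the first and rate-limiting step, was at 574, 520.1 and 533 CPM in wild-type liver and 593, 580.2 and 624 CPM in knockout. All knockout libraries were above all wild-type libraries, by a small margin, and the log2 difference was 0.14 ± 0.09 (SE). Counts of Tymp per 100 counts of Dpyd were 9.57, 9.99 and 10.6 in wild type and 28.5, 28.8 and 28.6 in knockout. Dpys (mm9 chromosome 15, 39600031 to 39689016), which opens the ring, was at 292, 292 and 265 CPM in wild-type liver and 288, 261 and 299 CPM in knockout, with overlapping groups and a log2 difference of 0.00 ± 0.10. Upb1 (mm9 chromosome 10, 74869656 to 74904424), the last step, was at 382, 347 and 339 CPM in wild-type liver and 309, 288 and 348 CPM in knockout. Knockout library 3 lay within the wild-type range, and the log2 difference of Upb1 was −0.18 ± 0.11.

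These 3 enzymes kept a log2 difference within 0.12 to 0.19 for Dpyd, −0.05 to 0.07 for Dpys and −0.25 to −0.10 for Upb1 over the other settings and the fits without 1 library. In the authors' deposited table their log2 ratios were 0.15 for Dpyd, 0.01 for Dpys and −0.17 for Upb1. The whole of Upb1 lies within the table's region of Gucd1, on the opposite strand, and Gucd1 rose with a log2 difference of 0.55 ± 0.11 (limma voom, adjusted p = 0.00532). Dpys shares 15333 bases with an antisense gene, Gm16291, which held 8 to 35 counts per library against 1263 to 2226 for Dpys. These overlaps are of whole gene spans, while the counted lengths were 6599 bases for Upb1 and 3039 for Dpys. How many counted bases are shared was not examined. Reads of these pairs cannot be told apart in any that are, since no source used here states the strand setting of the counting.

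The remaining members were low. Cda (mm9 chromosome 4, 137894339 to 137923907), which turns cytidine into uridine, held 11, 12 and 17 counts in wild-type liver and 22, 16 and 32 in knockout, or 1.88, 2.49 and 2.70 CPM against 5.02, 3.14 and 4.30 CPM. Its groups did not overlap, its log2 difference was 0.78 ± 0.39 (SE), and counts this low leave a wide error. Cda lies 4.78 megabases from Nr0b2 on the same chromosome. Uck1 (mm9 chromosome 2, 32110522 to 32115679), which phosphorylates uridine and cytidine, was at 17.2, 18.3 and 16.0 CPM in wild-type liver and 18.7, 13.2 and 17.2 CPM in knockout. Tk2 (mm9 chromosome 8, 106750595 to 106772439), which phosphorylates thymidine in mitochondria, was at 23.7, 20.6 and 17.9 CPM against 21.7, 17.1 and 21.2 CPM. Both kinases overlapped between genotypes, with log2 differences of −0.08 ± 0.19 for Uck1 and −0.04 ± 0.18 for Tk2. The authors' deposited table gave log2 ratios of 0.78 for Cda, −0.06 for Uck1 and −0.05 for Tk2.

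Levels of different genes were compared per kilobase of counted length. In wild type the order was Dpys at 93.1 ± 5.16 CPM per kilobase, Upp2 at 69.6 ± 25.4, Dpyd at 67.4 ± 3.48, Upb1 at 53.9 ± 3.51 and Tymp at 36.3 ± 1.54 (SD, n = 3 each). The range of Upp2, 48.5 to 97.9, overlapped those of Dpys, Dpyd and Upb1. In knockout Tymp came first at 114 ± 4.05 CPM per kilobase, followed by Dpys at 93.1 ± 6.37, Dpyd at 74.5 ± 2.78, Upb1 at 47.8 ± 4.63 and Upp2 at 30.2 ± 3.83, with no overlap between neighbours. Tymp thus went from the fifth to the first place of the 9 on this scale. The order depends on the counted lengths, 1502 bases for Tymp against 3039 for Dpys and 8040 for Dpyd. In CPM without that scaling, the knockout mean of Tymp was 172. That was below Dpyd at 599, Upb1 at 315, Dpys at 283 and Upp2 at 213. The place of Upp2 in wild type rested on library 1, without which its mean was 55.4 CPM per kilobase, below Dpyd at 65.5 and above Upb1 at 51.9. Tk2, Uck1, Cda and Upp1 held the last 4 places in both genotypes, at 8.73, 6.26, 2.28 and 1.04 CPM per kilobase in wild type and 8.41, 5.95, 4.01 and 0.50 in knockout, where Uck1 and Cda overlapped.

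**Figure D2:**
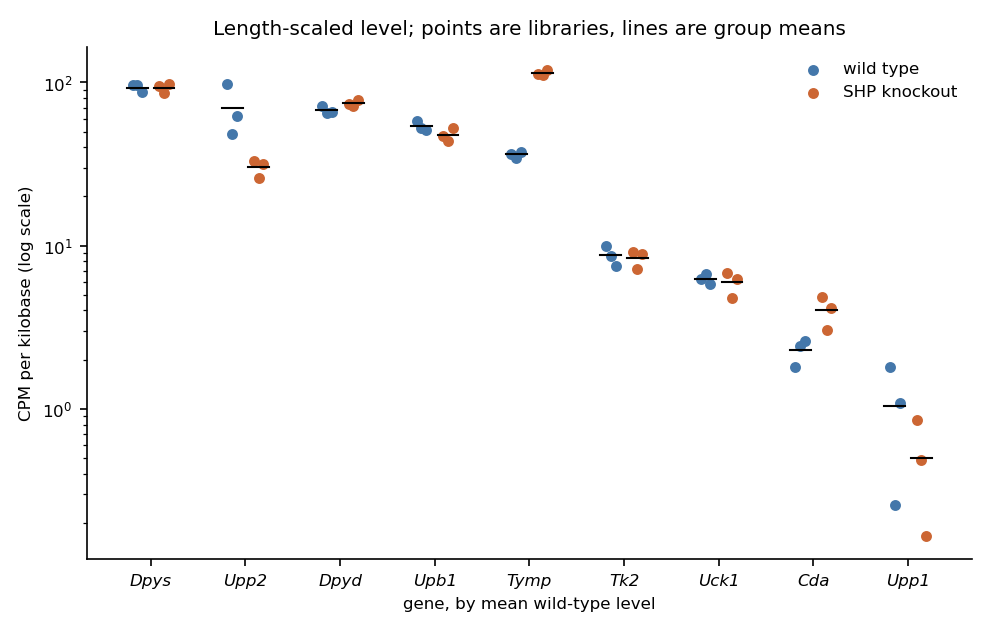
CPM per kilobase of counted length (vertical axis, log scale) for the 9 genes, ordered by their mean in wild type. Points are libraries of wild type (blue) and SHP knockout (orange) and lines are means. Tymp stands at 36.3 in wild type and at 114 in knockout, above Dpys at 93.1.

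Markers of other cells that could carry these transcripts are given beside the values of Tymp, and their part in the difference was not tested. In whole liver, a different number of cells of a type and a different amount of RNA per cell cannot be told apart. In the macrophage list, which includes Kupffer cell genes, 3 of 13 markers rose, 0 fell and 10 did not pass by limma voom, and by limma trend 3 rose and 1 fell. C1qa went from 37.8 ± 3.89 to 62.3 ± 13.8 CPM (SD, n = 3 each; log2 difference 0.73 ± 0.17, limma voom, adjusted p = 0.0118), Marco from 4.18 ± 0.871 to 8.94 ± 1.86 CPM (adjusted p = 0.0325). Without wild-type library 3, 0 of them rose (C1qa adjusted p = 0.0796, Marco adjusted p = 0.156). The Marco call was lost in 5 of the 6 fits without 1 library, and that of C1qa in 1. Of those that did not pass, Timd4, named after its values were seen, went the other way, from 10.7 ± 1.39 to 5.87 ± 1.76 CPM (log2 difference −0.81 ± 0.28, adjusted p = 0.0639), with groups that did not overlap. The sum of the 13 was 444 to 518 CPM in wild-type liver and 462 to 687 CPM in knockout, overlapping ranges, and Cd5l, the most abundant, had 0.26 ± 0.13 (adjusted p = 0.193). Platelet markers, 5 of 7 with counts, summed to 4.95 to 6.67 CPM and 4.91 to 6.85 CPM, and 6 of 8 neutrophil markers to 0.635 to 1.66 CPM and 1.34 to 2.16 CPM. Lymphocyte markers summed to 2.70 to 5.08 CPM and 2.51 to 4.97 CPM. No marker with counts was at 0 in all 6 libraries.

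Sinusoidal endothelial, stellate, erythroid, cholangiocyte and intestinal marker sums overlapped between genotypes. They were 515 to 576 CPM against 368 to 578 for endothelial, 392 to 433 against 211 to 426 for stellate, 186 to 212 against 180.2 to 314 for erythroid, 47.0 to 50.7 against 31.3 to 62.4 for cholangiocyte and 80.0 to 94.0 against 65.2 to 110.3 for intestinal markers. Of 9 endothelial markers 1 rose, 0 fell and 8 did not pass, with a median log2 difference of −0.17. Without knockout library 1, 2 of them rose and 0 fell, with a median of −0.05. Lyve1 rose (0.82 ± 0.22, limma voom, adjusted p = 0.0244), a call that 4 of the 6 fits without 1 library lost (up to adjusted p = 0.0848). Kdr (−0.42 ± 0.16) and Clec4g (−0.40 ± 0.16), named after their values were seen, were lower in every knockout library and did not pass (adjusted p = 0.0972 and 0.106). Of 9 stellate and fibroblast markers 0 rose, 1 fell and 8 did not pass, with a median of −0.33. That median changed sign without knockout library 1, to 0.14, where 2 rose and 1 fell. Rgs5, a pericyte gene, fell (−0.95 ± 0.20, adjusted p = 0.00733, and 0.0533 without wild-type library 3). The collagen genes of that list, named after their values were seen, had positive differences and did not pass: 1.07 ± 0.37 for Col1a1, 0.69 ± 0.25 for Col1a2 and 0.47 ± 0.24 for Col3a1 (adjusted p = 0.0664, 0.0811 and 0.209). The most abundant endothelial, stellate, erythroid, cholangiocyte and intestinal markers did not pass, with log2 differences of −0.30 for Stab2, −0.37 for Reln, −0.14 for Alas2, −0.28 for Spp1 and 0.00 for Apoa4, and neither did Cd4 of lymphocytes (0.28) or Gp1ba of platelets (0.32). Of the 9 hepatocyte markers Tat fell (−0.35 ± 0.10, adjusted p = 0.0284), a call lost in all 6 fits without 1 library (up to adjusted p = 0.101).

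Of 15 genes listed as neighbours of Tymp on chromosome 15, 8 were tested. Of these, 3 rose (Ncaph2, Ppp6r2 and Sbf1), 0 fell and 5 did not pass, with a median log2 difference of 0.45 against −0.01 over all genes. Ncaph2, a condensin II subunit that runs towards Tymp on the other strand and shares 896 bases with it in the table, was at 38.2, 54.7 and 48.1 CPM in wild-type liver and 71.0, 73.2 and 74.1 CPM in knockout. It rose by 0.66 ± 0.14 on the log2 scale (SE; limma voom, adjusted p = 0.00705), and the call was kept in each fit without 1 library (adjusted p = 0.0338 at most). Counts of Tymp per 100 counts of Ncaph2 were 144, 95.1 and 117 in wild type and 238, 228 and 241 in knockout, so the ratio was higher in every knockout library. Ppp6r2 (Saps2 in the table), a phosphatase subunit, had 0.47 ± 0.14 (adjusted p = 0.0414) and Sbf1, a myotubularin-related protein, 0.44 ± 0.13 (adjusted p = 0.0423). Both calls were lost in 4 of the 6 fits without 1 library (adjusted p = 0.173 and 0.142 at most). Arsa, arylsulfatase A, the most abundant that did not pass, had 0.37 ± 0.14 (adjusted p = 0.0977). Odf3b, named after its values were seen because its start is the nearest at 2.21 kilobases, had −0.56 ± 0.44 (adjusted p = 0.423).

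**Figure D3:**
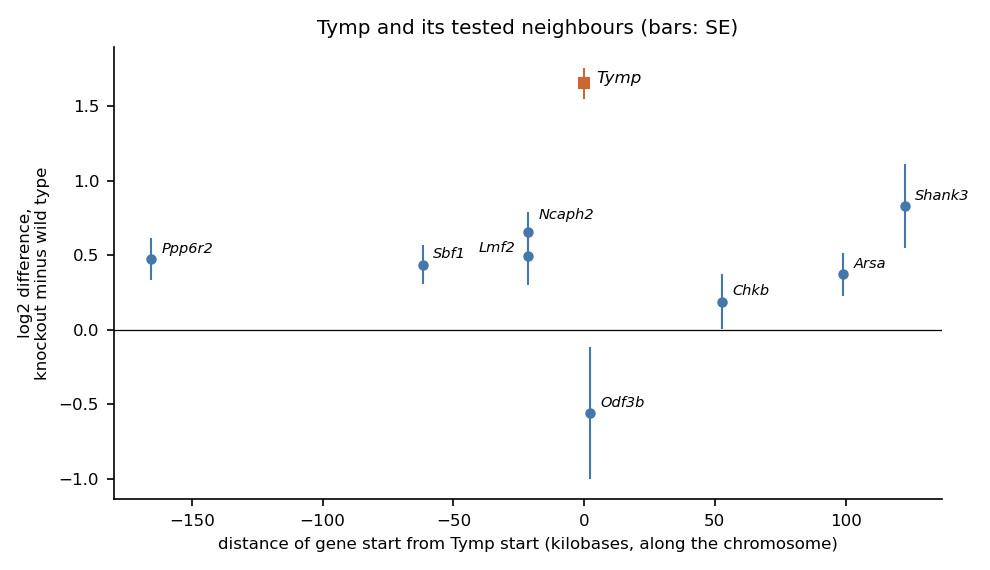
Log2 difference, SHP knockout minus wild type (vertical axis, bars are SE), against the distance of each gene's start from the start of Tymp in kilobases (horizontal axis). Tymp (orange square) stands at 1.65, and its 8 tested neighbours (blue) between −0.56 and 0.83.

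The genes around the members were counted by role in the same fit. De novo synthesis, which makes the pyrimidine ring, had 5 genes tested and 0 past the threshold by limma voom or limma trend, with 3 at an unadjusted p under 0.05 and a median log2 difference of 0.41. With the replicate number as a block 1 rose, and without knockout library 3 there were 2. Umps, the enzyme that completes UMP, was the most abundant, at 25.1, 24.5 and 21.1 CPM in wild-type liver and 29.0, 27.9 and 35.6 CPM in knockout (0.41 ± 0.16, adjusted p = 0.101). Its groups did not overlap.

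Among 13 further genes of salvage and nucleotide phosphorylation, 1 rose, 2 fell and 10 did not pass, with a median of 0.09. Tk1, the cytosolic thymidine kinase that competes with Tymp for thymidine, rose from 13.4 ± 2.11 to 22.5 ± 4.33 CPM (SD, n = 3 each; log2 difference 0.75 ± 0.20, limma voom, adjusted p = 0.0260). Cmpk1, which phosphorylates UMP and CMP, fell from 65.4 ± 5.23 to 45.7 ± 4.84 CPM (−0.51 ± 0.13, adjusted p = 0.0184). Each call was lost in 3 of the 6 fits without 1 library, among them the fits without wild-type library 2 or 3 (adjusted p = 0.110 and 0.0830 at most). Ak3, a mitochondrial adenylate kinase family member, had −0.30 ± 0.10 (adjusted p = 0.0494), lost in all 6 such fits (up to 0.172). Nme1, a nucleoside diphosphate kinase, had 0.40 ± 0.14 and did not pass (adjusted p = 0.0649).

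Of 8 tested genes reported for thymidylate and deoxynucleotide supply, 2 rose and 6 did not pass, with a median of 0.09. Shmt2, a mitochondrial source of one-carbon units, rose from 132 ± 13.0 to 176 ± 6.79 CPM (0.42 ± 0.11, limma voom, adjusted p = 0.0194), a call missed when wild-type library 3 or knockout library 2 was left out (adjusted p = 0.0987 and 0.0629). Dctpp1, which hydrolyses dCTP, rose (0.56 ± 0.17, adjusted p = 0.0470), a call that 5 of the 6 fits without 1 library lost (up to adjusted p = 0.160). Shmt1 was the most abundant that did not pass (0.31 ± 0.11, adjusted p = 0.0675). Of 6 genes listed as pyrimidine nucleotidases, not all of them specific to pyrimidines, 0 passed by limma voom. Among them 1 had an unadjusted p under 0.05, and the median was −0.27. That gene, Nt5c3, had −0.59 ± 0.20 (adjusted p = 0.0668), and passed by limma trend (adjusted p = 0.0456) and without knockout library 3 (adjusted p = 0.0290).

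The products of Upb1 are beta-alanine and beta-aminoisobutyrate, and 6 genes listed for beta-amino acid breakdown were tested. Of them 2 rose, 1 fell and 3 did not pass, with a median of −0.02. Abat, the transaminase that acts on beta-alanine as well as on GABA, was at 519, 452 and 422 CPM in wild-type liver and 627, 608 and 711 CPM in knockout. The groups did not overlap, and Abat rose by 0.49 ± 0.11 on the log2 scale (SE; limma voom, adjusted p = 0.0102; 0.0661 without wild-type library 3). Csad and Hibch do other work: Csad makes taurine precursors from cysteine and Hibch acts in valine breakdown. Csad rose from 154 ± 63.8 to 624 ± 64.0 CPM (2.11 ± 0.21, adjusted p = 7.26e-05) and Hibch fell from 102 ± 7.64 to 64.9 ± 5.31 CPM (−0.66 ± 0.12, adjusted p = 0.00272), both in all fits without 1 library. Aldh6a1, which oxidises the semialdehydes that follow, had 0.02 ± 0.11 (adjusted p = 0.929). Agxt2 was not analysed here.

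Of 2 tested nucleoside transporters, Slc29a1 (ENT1), the equilibrative carrier of uridine and thymidine, was at 139, 134 and 123 CPM in wild-type liver and 169, 183 and 182 CPM in knockout. It rose by 0.44 ± 0.10 on the log2 scale (limma voom, adjusted p = 0.0125; 0.0675 without wild-type library 3), and Slc29a3, at 2.16 to 3.75 CPM, had −0.35 ± 0.40 (adjusted p = 0.600). Thymidine level bears on mitochondrial DNA, so 12 genes of its maintenance were counted: 0 rose, 2 fell and 10 did not pass, with a median of −0.13. Sucla2, a succinyl-CoA ligase subunit, fell from 173 ± 10.2 to 126 ± 14.3 CPM (−0.46 ± 0.11, adjusted p = 0.0160; 0.0806 without wild-type library 3, and 0.0745 when knockout library 1 was left out). Tfam, which packages mitochondrial DNA, fell from 42.9 ± 1.78 to 31.7 ± 2.58 CPM (−0.45 ± 0.13, adjusted p = 0.0377), a call lost in all 6 fits without 1 library (up to adjusted p = 0.149). Suclg1 had −0.22 ± 0.11 (adjusted p = 0.199). In this RNA selected for its 5′ cap, the share of counts from mitochondrially encoded genes was lower in every knockout library. The part of the cap selection in that share was not tested, and the share does not measure mitochondrial DNA. With the mitochondrially encoded genes left out of the totals, 0 of the 12 maintenance genes rose and 2 fell, with a median of −0.13. Any further part of that share in these values was not tested.

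**Figure D4:**
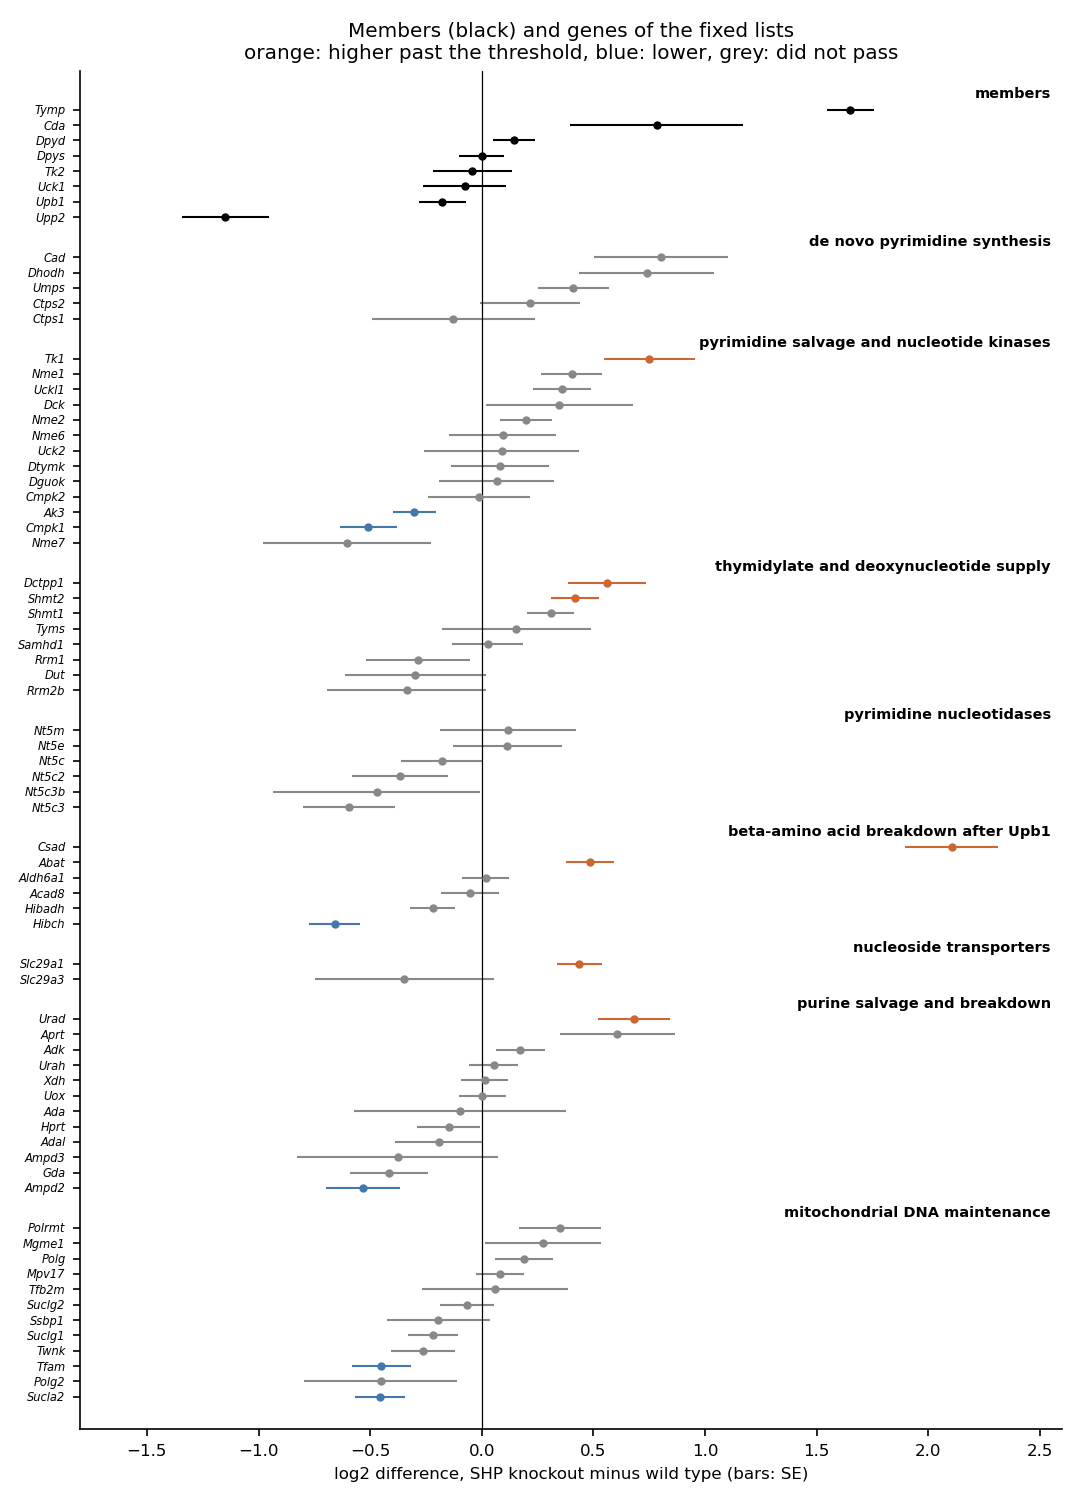
Log2 difference, SHP knockout minus wild type (horizontal axis, bars are SE), of the 8 tested members (black) and of the tested genes of the pathway lists. The neighbours of Tymp are not drawn here. Orange marks genes that rose, blue those that fell and grey those that did not pass. Tymp at 1.65 and Upp2 at −1.15 bound the members, and Csad at 2.11 is the farthest listed gene.

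In the pathway lists outside the 9 members, neighbours and purine genes included, 16 genes were past the threshold, and 3 without wild-type library 3 (Csad, Hibch and Ncaph2). Over all 11794 genes tested, 1713 (14.5%) were past it, and 629 genes were without wild-type library 3.

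By likeness over the 6 libraries, 210 of 8429 genes compared had a Pearson r with Tymp of 0.95 or more on log2 CPM. Compared were tested genes with a mean of at least 5 CPM and a symbol of a capital letter followed by lower-case letters or digits. Gm and Rik names were left out. The 6 points fall into the 2 genotypes, so a high r goes with libraries that are close within each genotype and apart between them. The 5 genes most like Tymp were Gldc, the glycine decarboxylase (r = 0.998), Bmp1, a procollagen protease (r = 0.997), the zinc transporter Slc39a3 (r = 0.995), Wdr89 (r = 0.995) and Spns1 (r = 0.994). Gldc was at 235 CPM in wild-type liver and 337 CPM in knockout, Bmp1 at 94.9 and 198 CPM, Slc39a3 at 10.8 and 17.6 CPM, Wdr89 at 58.4 and 90.4 CPM and Spns1 at 18.9 and 31.2 CPM. Log2 differences ran from 0.52 for Gldc to 1.06 for Bmp1, against 1.65 for Tymp.

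**Figure D5:**
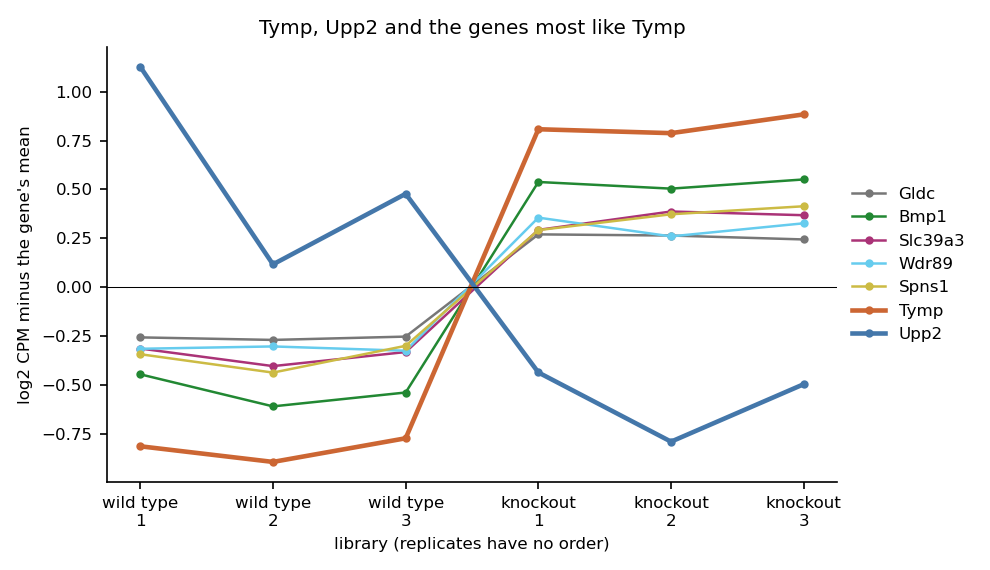
Log2 CPM minus the gene's own mean over the 6 libraries (vertical axis) for Tymp, Upp2 and the 5 genes most like Tymp, by library (horizontal axis, where replicates have no order and lines only join points of a gene). Tymp and the 5 genes are below their mean in each wild-type library and above it in each knockout library, and Upp2 is the reverse.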

How the data were processed

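Liver RNA selected for its 5′ cap with a high-affinity EIF4E variant was read on an Illumina GAII, per the labels' protocols. Per the submitters' processing notes, Novoalign 2.05.33 and mm9 were used for alignment. The counting tool, its strand setting and the gene annotation were not given in the sources used here. Values deposited by the authors are whole-number counts per gene and library, RPKM and a log2 ratio for pooled groups, and columns of scores for a p and its adjusted value, which were not used here. Of the lines, 4840 end early, and 13901 genes with empty cells were left out.

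Library sizes were adjusted with trimmed means of M values (factors 0.966 to 1.03) and counts given as CPM. Genes with 1.83 CPM (10 counts at the median library) in at least 3 libraries and 15 counts in all were fitted with limma 3.58.1 (voom, with 0.5 added to each count, lmFit, eBayes; two-sided) in R 4.3.3, and the model held genotype alone. The fit was run on simulated counts with the same dispersion for every gene, which does not show how it performs on these libraries. Python 3.11.15, pandas 2.3.3 and matplotlib 3.10.9 read the table and drew plots. Alternatives were limma trend, robust moderation, other scalings and filters, a replicate block and leaving out each library. A comparison of replicates within each group found more than counting noise (chi-square per gene 5.58 to 9.86), so none was a copy.

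The members, gene lists and tests were chosen with earlier results of these data known. Named genes are the members, of each pathway list up to 3 past the threshold with the largest log2 differences and the most abundant that did not pass, of each marker list the most abundant and up to 2 past the threshold, and the 5 genes most like Tymp. One gene of the planned lists is not reported here, and list counts leave it out.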

Additional observations from a re-analysis of the deposited data

How the results depend on the processing

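The log2 difference of Tymp, a description with no test, ran from 1.62 to 1.68 over the alternatives. Those of Dpys, Uck1 and Tk2 took both signs (−0.05 to 0.07, −0.15 to 0.07 and −0.16 to 0.07). Genes past the threshold numbered 1713 in all, 1711 by limma trend, 1871 with robust moderation, 1466 with no low-count filter and 629 to 1559 in the fits without 1 library (629 without wild-type library 3, 1061 without knockout library 1). Listed genes outside the members past the threshold numbered 16, 10 with no low-count filter and 3 to 15 in the fits without 1 library (3 without wild-type library 3, 8 without knockout library 2, 10 without knockout library 1); the cause was not tested. Of 504 values of 39 named genes of the lists under the alternatives, 417 kept their direction and side of the threshold, 72 lost the call, 3 gained one and 12 changed sign without passing in either fit. These 12 were of 4 genes near 0. In the fits without 1 library Aldh6a1 ran from −0.0445 to 0.117, Uox from −0.0941 to 0.0801, Alb from −0.0537 to 0.186 and Apoa4 from −0.20 to 0.32. Apoa4 was also at 0.0387 by limma trend, 0.0047 with median-of-ratios scaling, 0.0010 with the stricter filter and 0.0284 with the replicate block. The order of wild-type levels without library 1 was added after seeing the data.

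Same-numbered libraries of the groups did not deviate together (correlations −0.019, −0.021 and −0.024), and no library correlated best with its own number, so the numbers were not taken to pair them. With the replicate block 1778 genes and 13 listed genes passed, and Tymp was at 1.65. The depth limits Upp1, at 2 to 17 counts, and Cda, at 11 to 32 counts.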

Other observations

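The purine pathway beside pyrimidine breakdown had 12 genes tested, of which 1 rose, 1 fell and 10 did not pass, with a median log2 difference of −0.05. Urad (Prhoxnb in the table), which decarboxylates a product of urate oxidation, was at 25.6, 20.6 and 20.2 CPM in wild type and 40.9, 35.5 and 31.8 CPM in knockout. It rose with a log2 difference of 0.68 ± 0.16 (SE; limma voom, adjusted p = 0.0136), a call lost without wild-type library 3 (adjusted p = 0.0826). Ampd2, an AMP deaminase, fell from 28.6 ± 3.32 to 19.7 ± 2.41 CPM (SD, n = 3 each; −0.53 ± 0.17, adjusted p = 0.0463), which did not hold in 5 of the 6 fits leaving out a library (up to adjusted p = 0.140). Uox, urate oxidase and the most abundant, had 0.00 ± 0.11 (adjusted p = 0.987).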
